A study of Mus musculus with 8 samples.

Results

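Conjugation, or phase II metabolism, attaches a polar group to drugs, bilirubin, steroids, bile acids and reactive aldehydes so that they can be excreted. The genes described here encode its 3 main enzyme families in the mouse, the glutathione S-transferases (Gst), the cytosolic sulfotransferases (Sult) and the UDP-glycosyltransferases (Ugt). They were chosen by symbol alone, as the protein-coding genes of the mouse annotation whose names begin with Ugt1 to Ugt8, Sult1 to Sult6 or the Gst classes a, k, m, o, p, t and z. The rule found 65 of 21827 coding genes, 22 Gst, 21 Sult and 22 Ugt, and used no measured value. Accessible chromatin, cut by Tn5 transposase, had been sequenced (bulk ATAC-Seq) from nuclei of hepatocytes isolated by collagenase perfusion from male mice that the labels give as C57BL/6 of 10 to 12 weeks, while the study's methods name the substrain C57BL/6J and a somewhat lower age at surgery. Undamaged liver (0 h) was compared with regenerating liver 48, 72 and 96 h past a partial hepatectomy (PHx). Each of the 4 times had 2 libraries, and the labels name no transgene or drug. The study describes its bulk libraries as biological replicates from separate preparations, and at 0 and 48 h more of them than the 2 used here. The labels do not tie a library to an animal, so every spread given is the spread between libraries. In a bulk preparation, a change in accessibility within hepatocytes and a change in the share of other cells cannot be told apart.

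Glutathione S-transferases couple glutathione to electrophiles, sulfotransferases transfer sulfate from the activated donor PAPS to hydroxyl and amino groups, and most UDP-glycosyltransferases transfer glucuronic acid from UDP-glucuronate. Hepatocytes express many of them at high levels. Several members lie side by side in clusters of duplicated genes, and the Ugt1a genes splice alternative first exons to shared downstream exons, so that an open region in one Ugt1a gene lies within the body of its neighbors.

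The deposited lists of open intervals held 105206 to 154577 distinct intervals per library, and the read depth behind them is unknown. Strength was therefore expressed as the rank of an interval within its own list, with rank 1 the interval of lowest p-value. A promoter interval was the strongest interval that touched the 1 kb on either side of an annotated start site. A gene was said to rank behind 0 h at a time if both libraries of that time ranked it behind both 0 h libraries, and ahead of 0 h in the reverse case, with an absent interval counted as last. A gene was tested at a time if at least 2 of the 4 lists held an interval. With 2 libraries against 2, no exact test of a single gene can give a two-sided p below 0.333, so these counts are descriptions that were read against the same counts over all coding promoters. The file of 72 h replicate 2 carries a run label that differs from the others, and with 1 library under that label no within-run value could be had. Most hepatocyte marker promoters were listed in most libraries, 8 of 8 genes in both 0 h lists and 4 and 6 of 8 in the 48 h lists. That of Alb was listed in only 3 of the 8 libraries. None of 5 lymphoid markers was listed in any library.

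Member promoters were poor in CpG. Over the 1001 bases centered on the start site, 5 of 65 members (7.69%) were CpG-rich, with at least 50% GC and a CpG observed-to-expected ratio of at least 0.6, against 47.6% of all coding genes. The 5 were Gsto1, Gsto2, Gstz1, Sult4a1 and Ugt8a, and the median GC content was 44.3% in the members and 55.7% in all coding genes. Windows near the interval summits of 7 promoters are printed here because their genes carry the results on ranks or the motifs counted next. Capitals mark matches to the motifs searched, and each window is in the direction of transcription and holds no annotated exon base.
Ugt1a1: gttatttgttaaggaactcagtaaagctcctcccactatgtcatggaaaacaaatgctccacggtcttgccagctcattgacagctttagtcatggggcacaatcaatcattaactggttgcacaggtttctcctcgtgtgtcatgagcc
Sult1d1: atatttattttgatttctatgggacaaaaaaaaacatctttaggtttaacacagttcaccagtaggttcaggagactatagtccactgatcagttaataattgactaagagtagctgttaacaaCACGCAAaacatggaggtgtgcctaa
Sult2a7: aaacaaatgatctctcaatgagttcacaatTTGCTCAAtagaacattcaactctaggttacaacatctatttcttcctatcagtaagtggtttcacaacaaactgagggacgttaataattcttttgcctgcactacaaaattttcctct
Gsta3: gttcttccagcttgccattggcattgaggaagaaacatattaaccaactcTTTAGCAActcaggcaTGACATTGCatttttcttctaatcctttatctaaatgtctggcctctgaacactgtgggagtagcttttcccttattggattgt
Ugt2b35: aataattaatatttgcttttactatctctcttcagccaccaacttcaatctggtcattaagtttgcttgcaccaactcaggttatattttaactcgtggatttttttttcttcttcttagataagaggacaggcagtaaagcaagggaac
Gstm1: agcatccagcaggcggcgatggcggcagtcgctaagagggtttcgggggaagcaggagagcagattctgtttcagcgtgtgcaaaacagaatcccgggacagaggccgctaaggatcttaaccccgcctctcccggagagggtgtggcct
Gstm3: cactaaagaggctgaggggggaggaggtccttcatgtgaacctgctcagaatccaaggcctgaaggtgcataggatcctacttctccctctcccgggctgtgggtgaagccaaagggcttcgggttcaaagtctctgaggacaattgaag
The windows come from the RefSeq copy of the mouse genome, build mm10, at chr1:88211809-88211958 (Ugt1a1, plus strand), chr5:87569028-87569177 (Sult1d1, minus), chr7:14493037-14493186 (Sult2a7, minus), chr1:21240398-21240547 (Gsta3, plus), chr5:87000710-87000859 (Ugt2b35, plus), chr3:108017974-108018123 (Gstm1, minus) and chr3:107969284-107969433 (Gstm3, minus).

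Motifs of 7 factors were searched on both strands in the 201 bases around the summit of each promoter interval at 0 h, in 50 members and in 14717 coding promoters in all. The C/EBP letters TTNNGCAA were found in 6 of 50 member windows (12.0%) against 4.59% of all, and the AP-1 letters TGANTCA in 4 (8%) against 2.81%. The antioxidant response letters TGACNNNGC, read by NRF2, were in 6 (12.0%) against 10.6%, close to the share of all promoters. One of the 6 was Gsta3, in which TGACATTGC lay at -125 to -117 from the start site. The XRE letters TNGCGTG of the aryl hydrocarbon receptor were in 5 windows (10.0%) against 5.31%, the STAT letters TTCNNNGAA in 4 (8%) against 3.55%, the FOXA letters TGTTTAC in 2 (4%) against 1.52%, and the HNF4 letters CAAAGTCCA in 1 (2%) against 0.387%. Of 62 regions in all 8 lists that lay in member introns, exons or flanks and away from start sites, 12 held the C/EBP letters (19.4%), against 14.8% of 44689 such regions genome-wide, and 2 those of AP-1 (3.23%), against 8.74%. Such matches describe the letters in these windows and say nothing of what was bound there.

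Most member promoters were open in hepatocytes at every time. A promoter interval was listed in all 8 libraries for 41 of 65 members (63.1%), against 60.2% of coding genes, and in no library for 10 (15.4%), against 25.1%. The families differed in this count, with 20 of 22 Gst genes, 10 of 21 Sult genes and 11 of 22 Ugt genes listed in all 8. The 10 that were listed nowhere were Gstp2, Gstt4, Sult1e1, Sult2a1, Sult2a2, Sult2a6, Ugt1a8, Ugt2a1, Ugt2a2 and Ugt2b38. They include Sult1e1, the estrogen sulfotransferase, and Ugt2a1 and Ugt2a2, which are known from the nasal epithelium. Near-identical copies limit this reading for some of them, since 50-base words that occur once in the genome made up 29.6% of the 2001 bases around the start site in Sult2a1 and 31.7% in Sult2a2, while the median over the 10 was 98.8%. The lowest share of any member was 23.9%, in Gsta1, so that reads at its promoter can come from a copy and its ranks are uncertain.

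Gstz1, which encodes the maleylacetoacetate isomerase of tyrosine breakdown, had the strongest promoter interval of the 65 genes, at ranks 369 and 438 in the 0 h lists, and stood ahead of 98.3% of coding promoters. The interval is shared with the start site of Pomt2, which is read in the other direction, and cannot be assigned to one of these genes. Gstm5, Gsto2, Gstm4 and Gstm1 followed, with 0 h ranks of 1823 and 1214, of 1459 and 2519, of 3184 and 2310, and of 3694 and 5870. The strongest Sult promoter was that of Sult1c2 (8004 and 9821) and the strongest Ugt promoter that of Ugt1a1 (10887 and 10558), which encodes the bilirubin-conjugating enzyme. Ugt8a, the ceramide galactosyltransferase of myelin, was listed at rank 81649 in 1 of the 0 h lists and was absent from the other.

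**Figure D1:**
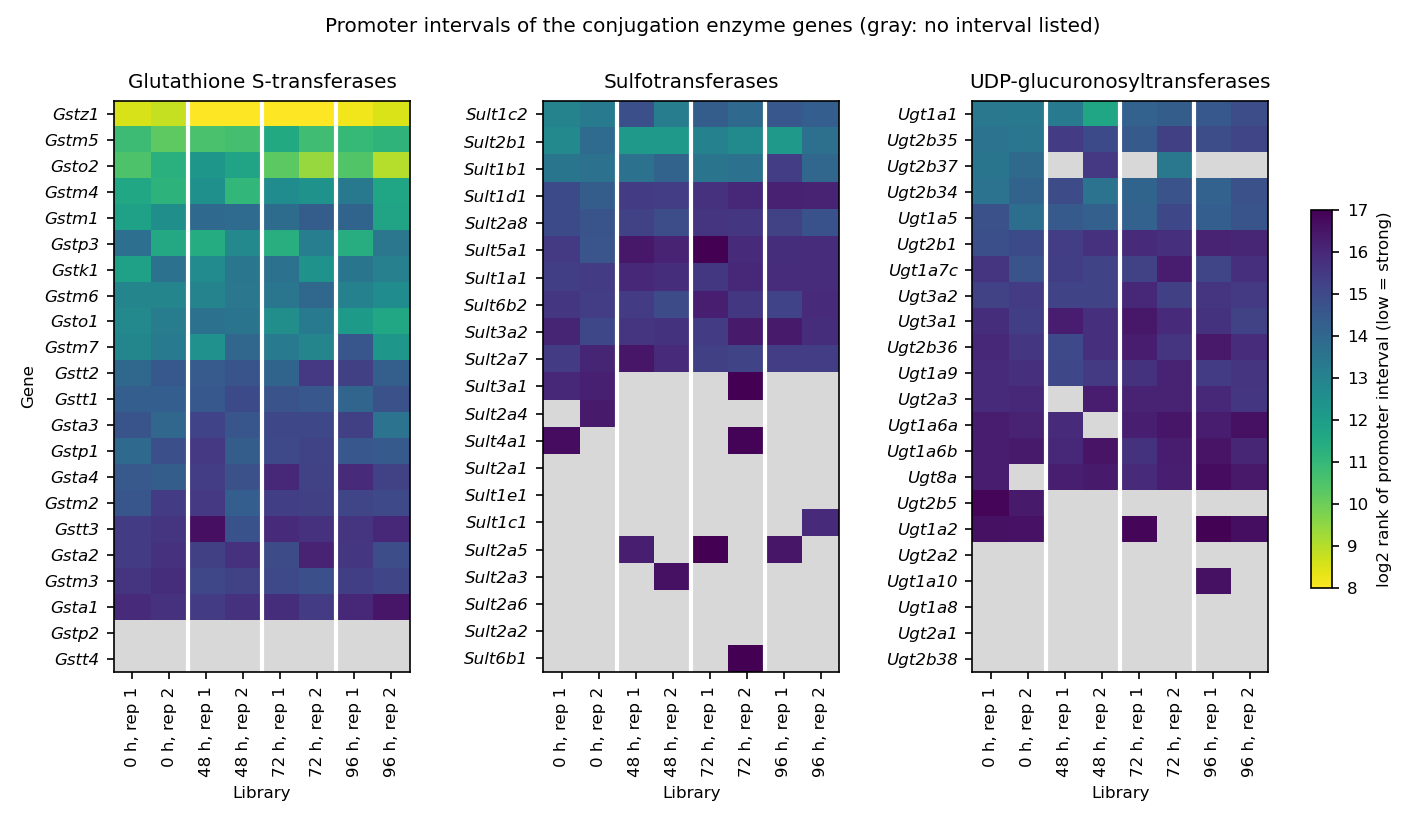
Log2 rank of the strongest promoter interval of each of the 65 genes (rows, ordered by 0 h strength within a family) in the 8 libraries (columns). Yellow is strong, dark blue is weak and gray is not listed. Gstz1 is the strongest row, and gray cells are concentrated in the Sult and Ugt panels, where 10 of 21 and 11 of 22 genes are listed in all 8 libraries.

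At 48 h after PHx, 16 of 48 member promoters tested ranked behind both 0 h libraries (33.3%), against 27.9% of all coding promoters, and 7 ranked ahead (14.6%), against 17.4%. At 72 h the counts were 21 behind and 6 ahead of 49 tested (42.9% and 12.2%), against 29.9% and 17.2% of all. At 96 h they were 20 behind and 6 ahead of 48 (41.7% and 12.5%), against 19.1% and 15.0% of all. The share behind thus stood near the share of all promoters at 48 h and above it at 72 and 96 h. The 3 times were compared with the same 2 libraries at 0 h and share their deviations.

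The list lengths differ, and with ranks expressed as a percentage of the list the split moved. The counts became 11 behind and 7 ahead at 48 h (against 21.9% and 20.6% of all), 14 and 10 at 72 h (against 16.0% and 28.1%), and 12 and 10 at 96 h (against 12.0% and 22.8%). The share of members behind was still above that of all promoters at each time but close to it at 48 h, while fewer than the share of all promoters were ahead. Calls behind that became overlapping on this scale were those of Gsta4, Gstm6, Gsto1, Sult1a1 and Ugt2a3 at 48 h, of Gstp1, Gstt1, Gstt3, Sult1a1, Ugt1a2, Ugt2a3 and Ugt3a1 at 72 h, and of Gsta1, Gstm5, Gstt3, Sult1a1, Ugt1a2, Ugt1a6a, Ugt2b34 and Ugt3a2 at 96 h. Calls ahead that became overlapping were those of Ugt1a1 and Ugt3a2 at 48 h. Without 72 h replicate 2, the library with the other run label, 28 of 48 member promoters ranked behind the 0 h libraries at 72 h and 10 ahead (against 45.1% and 26.7% of all), in a comparison that then rests on 1 library.

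**Figure D2:**
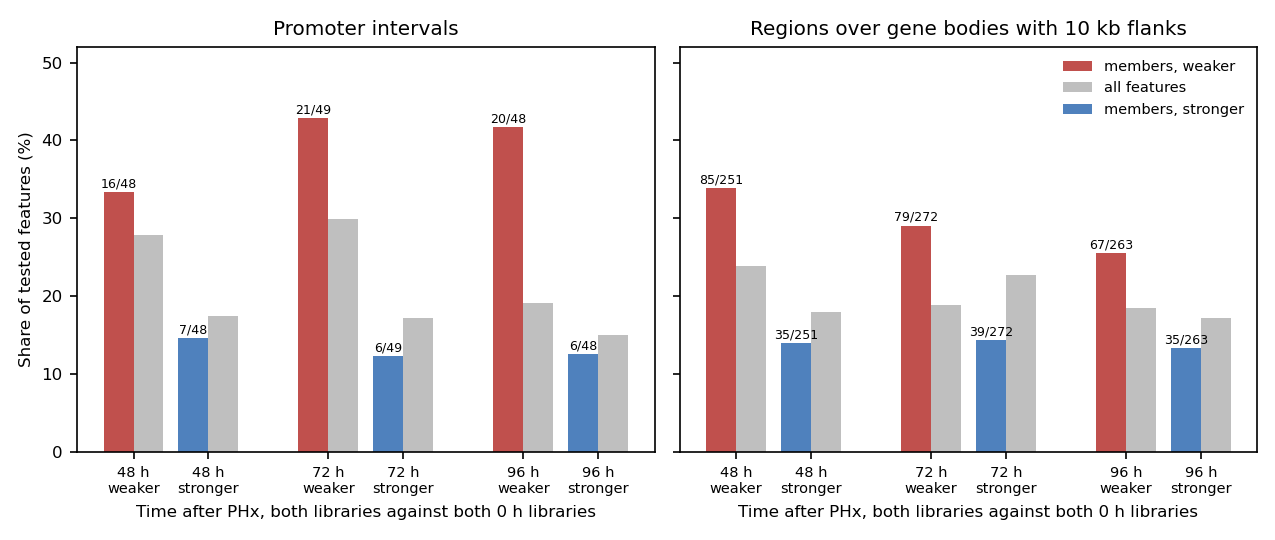
Share of tested features that ranked behind (weaker) or ahead of (stronger) both 0 h libraries in both libraries of a later time. Colored bars are the members, with counts above them, and gray bars are all coding promoters (left) or all merged regions (right). The largest distance between a member bar and its gray bar for promoters is at 96 h, at 41.7% against 19.1%.

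The peak caller's fold enrichment gave another measure, with a test. It was fitted by limma in the 13146 coding promoters, 41 of them members, that had an interval in all 8 lists. No promoter passed the Benjamini-Hochberg adjusted threshold of 0.05 at 48, 72 or 96 h, in the members or elsewhere (0% of all). At an unadjusted p under 0.05, 3, 7 and 4 of the 41 members passed at 48, 72 and 96 h, against 9.37%, 5.83% and 4.69% of all promoters fitted, and 2, 5 and 4 of these were lower. The median member log2 fold change was -0.06, -0.16 and -0.12, against 0.00, -0.01 and 0.00 over all promoters, and the median standard error of a member was 0.22. The libraries were quantile normalized over these same promoters, so a median near 0 over all of them follows largely from that step. The smallest adjusted p of any member was 0.402 at 48 h, 0.686 at 72 h and 0.835 at 96 h, so the gene values below are descriptions with their errors.

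**Figure D3:**
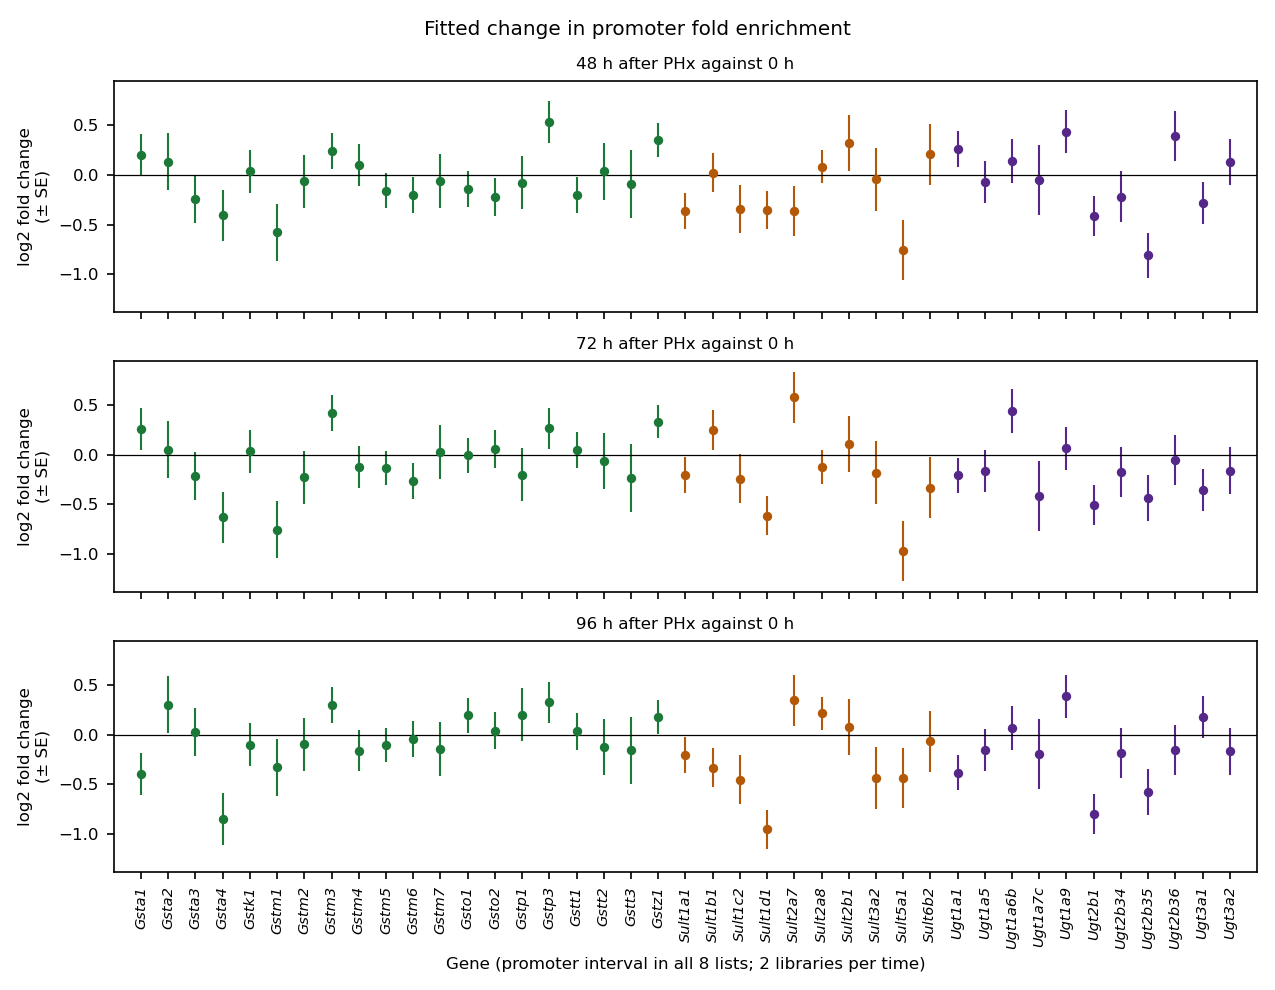
Log2 fold change in promoter fold enrichment at 48, 72 and 96 h against 0 h for the 41 genes listed in all 8 libraries, with the standard error from limma (2 libraries per time). Gst genes are green, Sult genes orange and Ugt genes purple. Sult1d1 and Ugt2b1 lie lower at each later panel, reaching -0.95 and -0.80 at 96 h, and no adjusted p passed 0.05.

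Among the glutathione S-transferases, the mu class on chromosome 3 held promoters that ranked on opposite sides of 0 h. Gstm1 (ENSMUSG00000058135.12, chr3:108012255-108017973, minus strand) encodes an abundant liver isoform of this class. Its promoter ranked 3694 and 5870 at 0 h, 15650 and 14934 at 48 h, then 14521 and 20597 at 72 h and lastly 17368 and 3418 at 96 h. It lay behind 0 h without overlap at 48 and 72 h, and the 96 h libraries fell on either side of the 0 h range. Its fold enrichment was 9.91 and 9.92 at 0 h against 4.94 and 5.30 at 48 h, a log2 fold change of -0.58 (SE 0.29) with an adjusted limma p of 0.579.

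Gstm3 (ENSMUSG00000004038.9, chr3:107963696-107969283), a neighbor read in the same direction, ranked the other way. It ranked 51150 and 57427 at 0 h, 35094 and 38778 at 48 h, then 33180 and 28688 at 72 h and lastly 40967 and 35856 at 96 h, ahead of both 0 h libraries in all 6 later ones. The fitted log2 fold change was 0.42 (SE 0.18) at 72 h, with an adjusted limma p of 0.824. Promoters of the remaining mu-class genes mostly overlapped 0 h. Gstm6 ranked behind at 48 and 72 h, Gstm4 at 72 and 96 h and Gstm5 at 96 h, while Gstm2 and Gstm7 overlapped at all 3 times.

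A flank of Gstm1 also ranked against its promoter. The region chr3:108010239-108012445, at the 3' end of the gene and 6594 bases downstream of the start site at its summit, ranked 91544 and 92014 at 0 h. It ranked 48951 and 35900 at 48 h, then 27451 and 33312 at 72 h and lastly 47325 and 40288 at 96 h. All 6 libraries after PHx were therefore ahead of 0 h in the 3' flank, while the promoter of the same gene was behind in 5 of the 6.

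**Figure D4:**
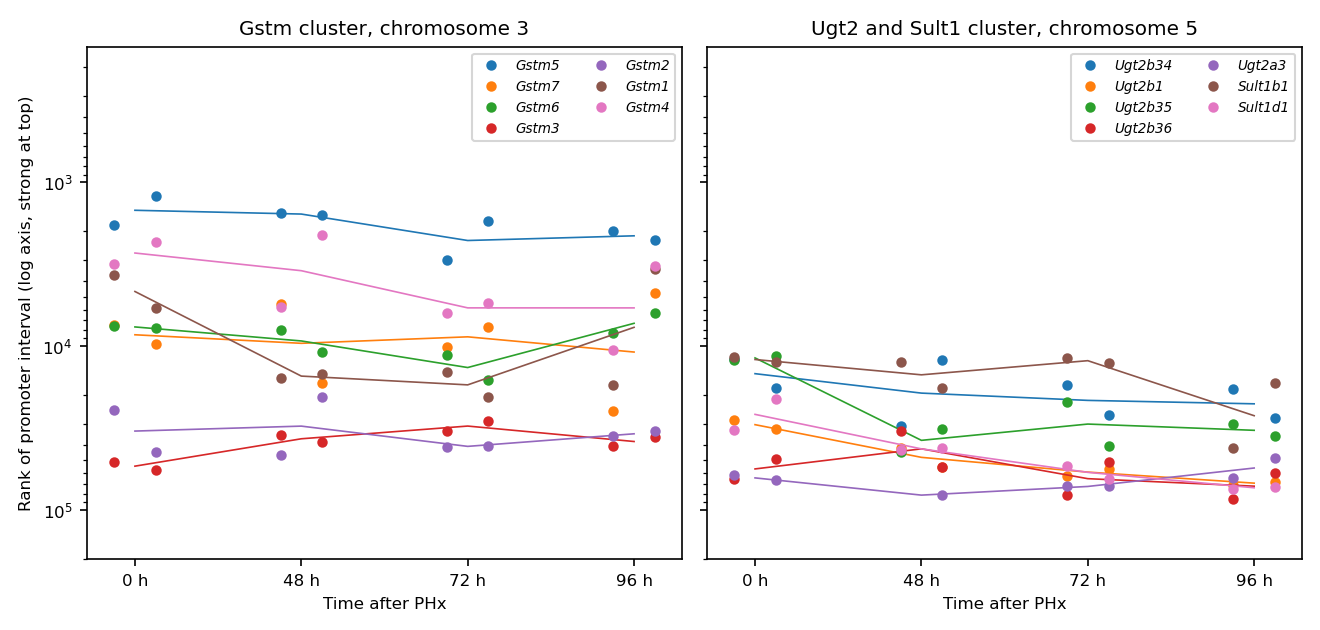
Rank of the promoter interval (log axis, strong at the top) in each library (points) with the geometric mean of the 2 libraries of a time (lines), for the 7 mu-class genes on chromosome 3 and for 7 genes of the Ugt2 and Sult1 cluster on chromosome 5. Gstm3 lies above its 0 h points at every later time, Gstm1 below at 48 and 72 h, and Ugt2b1 and Sult1d1 are lowest at 96 h, while Ugt2a3 has no interval in 1 of the 48 h libraries.

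Gstz1 was the second Gst gene ahead of 0 h in every later library. It ranked 184 and 170 at 48 h, then 169 and 206 at 72 h and lastly 291 and 361 at 96 h. Before normalization the fold enrichment hardly differed at 48 h, at 19.7 in both libraries against 20.4 and 19.0 at 0 h. It was 24.0 and 22.0 at 72 h and 22.0 and 21.0 at 96 h, above both 0 h libraries. The fitted log2 fold change at 48 h was 0.35 (SE 0.17, adjusted limma p 0.564). The alpha-class gene Gsta4, whose product is known for conjugating the lipid aldehyde 4-hydroxynonenal, ranked 22902 and 21055 at 0 h and between 27826 and 63465 in the 6 later libraries, behind without overlap at each time by rank, although as a percentage of the list the 48 h libraries overlapped 0 h. Its log2 fold change was -0.41 at 48 h, -0.63 at 72 h and -0.85 (SE 0.26) at 96 h, with an adjusted limma p of 0.998 at 96 h. The 96 h value includes an interval in replicate 1 with its summit at 712 bases from the start site, against -11 to 83 in the other libraries.

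The omega-class genes Gsto1 and Gsto2, thioltransferases that also reduce dehydroascorbate, lie next to each other on chromosome 19. Gsto2 ranked 1459 and 2519 at 0 h, 4817 and 3394 at 48 h, then 1233 and 669 at 72 h and lastly 1389 and 508 at 96 h. Gsto1 ranked 6976 and 9357 at 0 h, 12370 and 11828 at 48 h, then 5956 and 9864 at 72 h and lastly 4365 and 3079 at 96 h. By rank both neighbors were behind 0 h at 48 h and ahead of it at 96 h, but as a percentage of the list Gsto1 overlapped 0 h at 48 h. Their fitted fold changes were small, at -0.22 (SE 0.19) and -0.14 (SE 0.18) at 48 h and 0.04 and 0.20 at 96 h.

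In the theta class on chromosome 10 more regions around the genes ranked behind than ahead at each time. The cluster of Gstt1, Gstt2, Gstt3 and Gstt4 held 29 regions, of which 8 of 19 tested ranked behind at 48 h, 11 of 20 at 72 h and 6 of 21 at 96 h, against 23.9%, 18.9% and 18.5% of all regions, with 0, 0 and 1 ahead, against 18.0%, 22.7% and 17.2%. The strongest was an intronic region of Gstt1, chr10:75789794-75790444, at ranks 2545 and 1382 at 0 h and between 3025 and 10093 in the 6 later libraries. By rank the pi-class cluster of Gstp1, Gstp2 and Gstp3 had 2 of 7, 4 of 8 and 2 of 7 tested regions behind and 0 ahead. They stand against the same shares of all regions, and the 2 of 7 behind at 48 h lies near its share. Gstk1, the kappa-class gene, overlapped 0 h at all times, with 0 h ranks of 3727 and 12482.

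Gsta3 was the best-ranked alpha-class promoter (25871 and 16585 at 0 h), and it ranked behind only at 72 h, at 34253 and 34076. A region in its 5' flank, chr1:21231731-21233090, with its summit at -8651 bases from the start site, was stronger. It ranked 12170 and 11499 at 0 h, 36186 and 33206 at 48 h, then 23094 and 38680 at 72 h and lastly 24343 and 17211 at 96 h, behind 0 h in all 6. Around Gsta2, 5, 3 and 2 of 8 regions tested ranked behind at 48, 72 and 96 h and 0 ahead. Over all regions 23.9%, 18.9% and 18.5% were behind and 18.0%, 22.7% and 17.2% ahead. As percentages of the list fewer of the 8 were behind at 48 and 72 h. On that scale a region was ahead at 72 h and another at 96 h.

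Of the sulfotransferases, 4, 6 and 6 promoters ranked behind and 1 ahead at 48, 72 and 96 h, of 11, 12 and 11 tested. Over all coding promoters 27.9%, 29.9% and 19.1% were behind and 17.4%, 17.2% and 15.0% ahead, so that the count behind at 48 h lies near the share of all. Sult1d1, which sulfates phenols and catecholamines, ranked 32535 and 21067 at 0 h, 43129 and 41898 at 48 h, then 54189 and 64504 at 72 h and lastly 74241 and 72628 at 96 h. The libraries of each later time lay behind those of the time before. Its fold enrichment was 7.90 and 9.43 at 0 h against 4.43 and 3.74 at 96 h. The fitted change at 96 h, -0.95 (SE 0.20), had the smallest unadjusted p of the members at 0.00061 and an adjusted limma p of 0.835.

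Sult1a1, the main phenol sulfotransferase, ranked 41547 and 44087 at 0 h and between 47935 and 65018 afterward, behind without overlap at all 3 times by rank but overlapping 0 h at each as a percentage of the list. The interval in 48 h replicate 1 had its summit at 912 bases from the start site. Sult1b1, known for thyroid hormones, overlapped 0 h at 48 and 72 h and ranked behind at 96 h, at 42180 and 16869 against 11679 and 12559. For Sult1c2 the values were 8004 and 9821 at 0 h, 28248 and 9541 at 48 h, then 20813 and 15592 at 72 h and lastly 24271 and 20170 at 96 h. The interval of 48 h replicate 1 had its summit at 332 bases from the start site, against -97 to -69 elsewhere. One 48 h library thus kept the 0 h rank, while both 72 h and both 96 h libraries were behind. In an intron of the same gene, chr17:53833243-53833929 ranked 65486 and 47374 at 0 h and between 22188 and 40205 in the 6 later libraries, ahead of 0 h in each.

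Sult3a1, an amine sulfotransferase, had a weak interval at 0 h (65486 and 74867) that was absent from 5 of the 6 later lists and ranked 137121 in 72 h replicate 2. Sult5a1 ranked 45184 and 25408 at 0 h and between 58517 and 139013 later, with a log2 fold change of -0.97 (SE 0.30, adjusted limma p 0.686) at 72 h. Its interval had its summit at -836 to -689 bases from the start site in 7 libraries, but in 48 h replicate 2 another interval, at -36, was the strongest. The bile acid and steroid sulfotransferases of the Sult2a group had 2 of 8 promoters, Sult2a7 and Sult2a8, listed in all 8 libraries, 3 in 1 to 3 libraries and 3 in none. Sult2a7 ranked 43964 and 68290 at 0 h, 89304 and 60103 at 48 h, then 40196 and 36243 at 72 h and lastly 42191 and 42123 at 96 h, ahead of 0 h at 72 and 96 h.

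Among the UDP-glycosyltransferases, the Ugt2b genes, which encode enzymes for steroids, bile acids and drugs, held the lowest adjusted p. Ugt2b35 ranked 12240 and 11455 at 0 h, 44264 and 32119 at 48 h, then 22144 and 40636 at 72 h and lastly 30121 and 35609 at 96 h. Its fold enrichment was 11.1 and 11.7 at 0 h against 4.38 and 5.68 at 48 h. The log2 fold change at 48 h was -0.81 (SE 0.23, adjusted limma p 0.402), the lowest adjusted p of any member at any time. Its promoter sequence, shown above, held none of the motifs searched.

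Ugt2b1 ranked 28332 and 32300 at 0 h, 42089 and 54485 at 48 h, then 61939 and 56034 at 72 h and lastly 70311 and 67351 at 96 h. The order of the times was the same as for Sult1d1, with the 96 h libraries lowest, and the log2 fold change reached -0.80 (SE 0.20, adjusted limma p 0.860). In 96 h replicate 2 its strongest interval had its summit at 527 bases from the start site, and in the other 7 libraries at -121 to -102, so the 96 h value joins different intervals. The weak interval of Ugt2b5 (116073 and 82524 at 0 h) was absent from all 6 later lists. Ugt2b34 and Ugt2b36 mostly overlapped 0 h. In the flank of Ugt2a3, chr5:87340007-87340937, with its summit at -3510 bases from the start site, ranked 3798 and 2506 at 0 h and 8337 and 9163 at 48 h, and was behind 0 h in all 6 later libraries.

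For Ugt2b37 the edge of the promoter window mattered. The gene was called behind at 48 and 96 h, with no interval within 1 kb of the start site in 1 of the 48 h lists and in both 96 h lists. Where it was listed there, its interval had its summit at -1275 to -1241 bases from the start site, and a region at that place was listed in all 8 libraries. That region ranked 11501 and 15247 at 0 h, 18902 and 46543 at 48 h, then 29379 and 10875 at 72 h and lastly 38305 and 5614 at 96 h, which is behind 0 h at 48 h and overlaps it at 72 and 96 h. The call at 96 h therefore rests on the window edge, and that at 48 h does not. Gstp3 and Sult6b2 also had intervals centered outside the window. For Sult2b1, the cholesterol sulfotransferase, the strongest interval in 5 libraries was one shared with the promoter window of Lmtk3, with its summit 1039 to 1070 bases from a Sult2b1 start site, and in the other 3 one at another start site. With the summit required within 1 kb, Sult2b1 was no longer ahead at 48 h.

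Ugt1a1 (ENSMUSG00000089960.1, chr1:88211959-88218997) had regions at its start site and within its gene that followed different courses. The region at the start site, chr1:88211703-88212748, ranked 10887 and 10558 at 0 h, 10154 and 14722 at 48 h, then 18217 and 20714 at 72 h and lastly 23293 and 30248 at 96 h. A stronger region in the gene, chr1:88212881-88214604, with its summit 1893 bases downstream of the start site, ranked 748 and 1203 at 0 h, 4053 and 3290 at 48 h, then 1148 and 1167 at 72 h and lastly 1750 and 1275 at 96 h. The start site overlapped 0 h at 48 h and lay behind at 72 and 96 h, whereas the downstream region was furthest back at 48 h. In 48 h replicate 2 the downstream interval reached into the 1 kb window and was counted as the promoter, which is why Ugt1a1 was among the 7 genes ahead at 48 h. Both regions also lie within the bodies of the other Ugt1a genes.

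**Figure D5:**
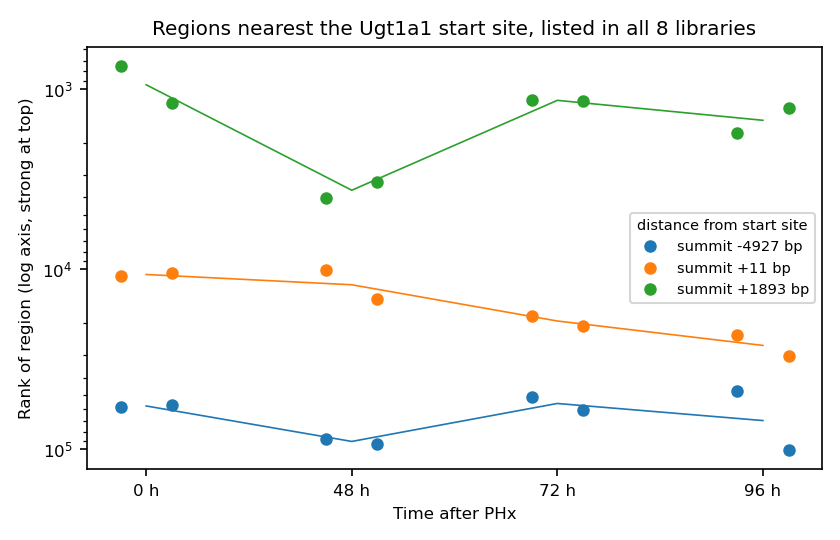
Rank (log axis, strong at the top) of the 3 regions nearest the Ugt1a1 start site that were listed in all 8 libraries, by time after PHx, with points for libraries and lines through the geometric mean of each time. The start-site region (+11 bp) ranks lower at 72 and 96 h, and the downstream region (+1893 bp) is lowest at 48 h, at 4053 and 3290.

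Of the other first exons of the Ugt1a locus, that of Ugt1a9 ranked 60946 and 56638 at 0 h, 33825 and 45900 at 48 h, then 53129 and 71080 at 72 h and lastly 43407 and 49934 at 96 h, ahead of 0 h at 48 and 96 h. Ugt1a2 had weak intervals (99142 and 97177 at 0 h) that were absent from both 48 h lists. Ugt1a6a and Ugt1a6b, whose products conjugate small phenols, overlapped 0 h at 48 h. Ugt1a6b was ahead at 72 h and Ugt1a6a behind at 96 h, and their start sites share sequence (67.4% of 50-base words occur once). The promoter of Ugt3a2, from a family that uses sugars other than glucuronic acid, ranked 38919 and 44383 at 0 h and 36380 and 36661 at 48 h, ahead by a narrow margin, with summits at 359 and 383 bases from the start site in these libraries and at 15 and 4 at 0 h.

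The libraries after PHx were also compared with 0 h as 1 group of 6, a comparison chosen after the values had been seen. Ranked behind both 0 h libraries in all 6 were 9 of 50 member promoters tested (18.0%), against 7.11% of all coding promoters. They were Gsta4, Sult1a1, Sult1d1, Sult3a1, Sult5a1, Ugt1a2, Ugt2b1, Ugt2b35 and Ugt2b5. Ahead in all 6 were Gstm3 and Gstz1 (4%), against 4.18% of all. The 9 genes behind are 1 Gst, 4 Sult and 4 Ugt genes, and 4 of them, all Ugt2b genes or Sult1d1, lie in the cluster on chromosome 5. As percentages of the list 6 of 50 stayed behind in all 6 libraries (12.0%, against 3.48% of all), without Gsta4, Sult1a1 and Ugt1a2, and Ugt1a9 joined Gstm3 and Gstz1 ahead (6.0%, against 6.67% of all).

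Over the gene bodies with 10 kb on either side, the members formed 42 loci of 2334.2 kb in all, 10 of them with 2 or more members. They held 495 of the 315767 regions made by merging the intervals of all libraries, and 125 of these were listed in all 8. A library had 243 to 323 intervals in these loci, and of its 50000 strongest intervals 103 and 121 at 0 h, 104 and 102 at 48 h, then 97 and 91 at 72 h and lastly 97 and 100 at 96 h. The number of strong intervals in the loci at 48 h overlapped that at 0 h, and all 4 libraries of 72 and 96 h were below it.

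Of the regions tested, 85 of 251 ranked behind at 48 h (33.9%), against 23.9% of all regions, and 35 ahead (13.9%), against 18.0%. At 72 h 79 of 272 were behind (29%) and 39 ahead (14.3%), against 18.9% and 22.7%. At 96 h 67 of 263 were behind (25.5%) and 35 ahead (13.3%), against 18.5% and 17.2%. The share of member regions behind was above the share of all regions at each time. As percentages of the list, the counts were 65 behind and 36 ahead at 48 h (against 18.5% and 21.3% of all), 47 and 64 at 72 h (against 8.81% and 36.0%), and 46 and 53 at 96 h (against 11.1% and 24.4%). On that scale more member regions were ahead than behind at 72 and 96 h, as in the genome as a whole.

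By place, 24 of 68 promoter regions, 22 of 72 intronic regions and 30 of 77 flanking regions of the members ranked behind at 48 h, and 9, 15 and 7 ahead. Of regions at the promoters of other genes 7 of 23 were behind and 3 ahead, and of exonic regions 2 of 11 and 1. The share of all regions, of every class together, was 23.9% behind and 18.0% ahead. At 72 and 96 h 32 of 69 and 25 of 67 promoter regions, 15 of 79 and 15 of 76 intronic regions and 26 of 89 and 23 of 86 flanking regions were behind. Ahead were 8 and 9, 15 and 12, and 11 and 11. Of all regions 18.9% and 18.5% were behind and 22.7% and 17.2% ahead, so the later intronic counts behind lie near the share of all. In all 6 libraries after PHx, 33 of 338 regions ranked behind (9.76%), against 4.78% of all, and 7 ahead (2.07%), against 2.37%. As percentages of the list these were 18 behind (5.33%, against 2.12% of all) and 10 ahead (2.96%, against 4.08%). The regions described at Gsta3, Gstm1, Gstt1, Sult1c2 and Ugt2a3 kept their side of 0 h in all 6 libraries on both scales. The region furthest ahead of 0 h at 48 h was chr9:78175118-78176402, at ranks 2330 and 6170 at 0 h, 236 and 276 at 48 h, then 8404 and 4096 at 72 h and lastly 4198 and 8798 at 96 h. It is within 10 kb of Gsta4, but it covers the starts of the noncoding RNA genes Rn7sk and C920006O11Rik and has its summit at -16562 bases from the Gsta4 start site. It is therefore reported by position only.

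Other genes of the pathway were read from a list of 41, covering the supply of the donors, glutathione synthesis, other conjugating enzymes, efflux pumps and regulators. Of these, 14 of 39 ranked behind at 48 h (among them Slc26a1, Gclc, Ggt1, Mgst1, Tpmt, Nat1, Ephx1, Nfe2l2, Ahr, Nr1i3, Nr1h4 and Hnf4a) and 6 ahead (Slc35b1, Nnmt, Abcc3, Abcg2, Keap1 and Nr1i2). At 72 h 13 of 40 were behind and 4 ahead, and at 96 h 12 of 40 and 7. Over all coding promoters 27.9%, 29.9% and 19.1% were behind at these times and 17.4%, 17.2% and 15.0% ahead, and the pathway counts behind at 72 h and ahead at 48 and 96 h lie near these shares. As percentages of the list 10, 5 and 5 were behind and 9, 8 and 10 ahead. Over all coding promoters 21.9%, 16.0% and 12.0% were behind on that scale and 20.6%, 28.1% and 22.8% ahead. The direction of the split turned at 72 and 96 h in the pathway list as it did over all coding promoters. On that scale Mgst1, Nfe2l2 and Nr1h4 overlapped 0 h at 48 h, and Ephx1, behind at 48 h, was ahead at 96 h. Tpmt, the thiopurine methyltransferase, ranked 843 and 653 at 0 h against 6345 and 7217 at 48 h. Abcg2, an efflux pump for sulfated and other conjugates, ranked 2772 and 1767 at 0 h against 459 and 1011 at 48 h. At 96 h it ranked 3901 and 2909, behind 0 h by rank and as a percentage of the list.

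The 11 regulators included Nfe2l2, which encodes NRF2, and Keap1, its inhibitor, and by rank these lay on opposite sides of 0 h at 48 h, although as a percentage of the list Nfe2l2 overlapped 0 h. Nfe2l2 ranked 4487 and 5859 at 0 h against 8947 and 7436 at 48 h. For Keap1 the ranks were 6024 and 14311 at 0 h, 3605 and 5645 at 48 h, then 23804 and 31255 at 72 h. The nuclear receptor CAR (Nr1i3) was behind 0 h at all 3 times by rank and at 48 h as a percentage of the list, and PXR (Nr1i2) was ahead at 48 h, at 16256 and 9677 against 24391 and 24659. Hnf4a ranked 2492 and 1918 at 0 h against 5443 and 3415 at 48 h.

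Cell type markers were read in the same way, against 27.9%, 29.9% and 19.1% of all coding promoters behind and 17.4%, 17.2% and 15.0% ahead at 48, 72 and 96 h. Of 8 hepatocyte markers, 6, 6 and 4 ranked behind 0 h at 48, 72 and 96 h and 0 ahead. Of 29 markers of macrophages, endothelial cells, stellate cells, cholangiocytes and lymphoid cells, 12 were listed nowhere, and of the 11, 13 and 13 tested 1, 2 and 0 ranked behind and 4, 0 and 2 ahead. The 4 ahead at 48 h were Cd68, Des, Reln and Col1a1, while the 0 of 13 ahead at 72 h lie below the share of all promoters and the 2 of 13 at 96 h near it. As percentages of the list 4, 2 and 1 hepatocyte markers were behind and 0 ahead, and 0 of the others were behind and 3, 1 and 2 ahead. On that scale 21.9%, 16.0% and 12.0% of all coding promoters were behind and 20.6%, 28.1% and 22.8% ahead. The 1 of 8 hepatocyte markers behind at 96 h lies near the share of all. The 1 and 2 of 13 others ahead at 72 and 96 h lie below it. A library listed 8 to 14 of the 29, with 13 and 9 in the 0 h lists against 8 and 14 at 48 h. The part of the marker values in those of the conjugation genes was not tested.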

How the data were processed

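The 8 deposited lists of open intervals were made by the authors, who per the study's methods used the ENCODE ATAC-Seq pipeline, with alignment to mm10 by Bowtie2 and peak calling by MACS2 in each library. The authors' columns hold a fold enrichment (ratio to local background), a −log10 p, a −log10 q and a summit. The deposited display score was not used. No read counts were given, so depth is unknown and the length of a list can shift ranks. Lines with the same interval were collapsed to the highest −log10 p, and intervals were ranked on it. Start sites and gene bodies came from GENCODE M21 basic. Groups came from the labels. The members and gene lists were chosen with earlier results of these data known. Two-sided limma 3.58.1 tests used log2 fold enrichment, quantile normalized, with Benjamini-Hochberg adjustment over all 13146 promoters fitted, and were tested on simulated data. Named genes were up to 8 per direction at 48 h and 4 at 72 and 96 h, by the gap between groups in log2 rank, the 10 strongest at 0 h, the best of each subfamily, the regions with the widest gaps and pathway genes called at 48 h. Genes named outside this rule, such as Sult2a8 and Ugt1a6a, were chosen after their values were seen. Words of 50 bases were counted on both strands over chromosomes 1 to 19, X and Y. A few items of the lists are not reported here.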

Additional observations from a re-analysis of the deposited data

Results flagged for a closer look

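Of 48 member promoters tested at 2 or more times, 5 (10.4%) ranked on opposite sides of 0 h at different times, with no overlap between libraries at either, against 4.88% of 14660 coding promoters. The difference in mean log2 rank from 0 h, negative where the later libraries were stronger, is given for each, and opposite directions at 2 times were not themselves tested on ranks. For Gsto2 it was 1.08 at 48 h, then -1.08 at 72 h and -1.19 at 96 h. For its neighbor Gsto1 it was 0.58 at 48 h and -1.14 at 96 h. Ugt1a1 gave -0.89 at 48 h, then 0.86 at 72 h and 1.31 at 96 h, where the 48 h value includes the library in which the downstream interval was taken for the promoter. Gsta1 gave -0.26 at 48 h and 0.39 at 96 h, at a start site with many repeated words, and Ugt3a2 -0.19 and 0.21. With the summit required within 1 kb of the start site, a rule chosen after seeing the data, the 48 h calls of Ugt1a1 and Gsta1 became overlapping, so that 3 of the 5 remained, and Ugt1a6b joined them (4 of 45 members, 8.89%, against 4.92% of all). As percentages of the list, also chosen after seeing the data, only Gsto2 of the 5 remained and Gstm6 and Sult1b1 joined it (3 of 48, 6.25%, against 5.25% of all).

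The direct limma comparison of 96 h with 48 h was a test of such differences on fold enrichment. It gave a log2 difference of -0.64 (SE 0.18, adjusted p 0.761) for Ugt1a1 and -0.59 (SE 0.21, adjusted p 0.761) for Gsta1, where the Ugt1a1 value again includes the downstream interval in 48 h replicate 2. For Gsto2, Gsto1 and Ugt3a2 it gave 0.26, 0.34 and -0.30 (adjusted p 0.839, 0.805 and 0.856), and no promoter of the 13146 passed. With 2 libraries per time, samples far from their group could not be tested for.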

How the results depend on the processing

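Of 174 alternatives over 15 counts and 3 medians, 131 left a count within 1.5 times its value or a median within the median standard error of a member (0.22). Among the 131 are 30 limma counts that stayed at 0. The tolerance for a median was larger than the medians themselves, so that even a change of sign counted as no move. Single genes were recomputed with ranks as percentages, as given in the report, and with the summit within 1 kb of the start site, where the calls of Gsta1, Sult2b1 and Ugt1a1 at 48 h went from ahead to overlapping, Gsta2 and Ugt1a6b at 48 h went from overlapping to behind, and Gstp3, Sult6b2 and Ugt2b37 could not be tested. Ranks as percentages of the list gave 10 member promoters ahead at 72 h, 12 behind and 10 ahead at 96 h, and 47 regions behind and 64 ahead at 72 h and 53 ahead at 96 h, and the lists differ in length. A promoter window of 500 bp, or a summit within 1 kb of the start site (chosen after seeing the data), left 4 promoters ahead at 48 h. Gene bodies without flanks gave 48, 49 and 40 of 155, 164 and 158 regions tested behind at 48, 72 and 96 h. The shares of all regions behind stayed at 23.88%, 18.92% and 18.45%. At 96 h 23 were ahead, against 17.22% of all. The 50000 strongest intervals gave 40, 37 and 31 of 113, 111 and 112 behind, against 24.42%, 22.54% and 19.53% of all. Ahead were 16, 9 and 15, against 20.65%, 20.87% and 16.77%. Requiring 50% of a region to be covered gave 22, 23 and 22 of 202, 222 and 222 ahead, against 15.79%, 23.82% and 15.32%.

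Leaving out 1 library raises the counts by construction, since fewer libraries must agree. Over the 4 libraries of each comparison, 20 to 26, 27 to 31 and 22 to 29 promoters were behind at 48, 72 and 96 h and 9 to 14, 8 to 10 and 9 to 14 ahead. The shares of all promoters rose too, and without 0 h replicate 1 the 20 of 45 members behind at 48 h stood against 43.9% of all, so that the member excess at 48 h was no longer seen. For regions, 101 to 120, 108 to 119 and 95 to 110 were behind and 53 to 60, 57 to 68 and 58 to 69 ahead. Tested were 216 to 234, 236 to 254 and 228 to 247 regions. Of all regions 34.58% to 43.05%, 34.52% to 36.61% and 32.92% to 39.91% were then behind. The shares of all regions ahead were 28.11% to 34.46%, 32.46% to 41.47% and 27.88% to 34.59%.

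limma called 0 member promoters in each of 30 alternatives, the replicate block included. The numbers did not pair the libraries, with correlations of deviations from -0.11 to 0.17 over 6 pairs. The median member change at 48 h turned positive with median centring (0.01) and without 0 h replicate 1 (0.01), and that at 72 h was -0.33 on log2 of −log10 p against -0.16. Depth is unknown, so weak intervals near the end of a list limit what absence means.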
